A study of Mus musculus with 8 samples.

Results

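The genes described here encode the proteins of the cytosolic ribosome, sorted by subunit and by whether a row is a main gene or a gene-like copy. They were chosen by symbol from the deposited count matrix of splenic CD8+ T cells: Rpl or Rps followed by a number and, where present, 1 of the letters a, l or x (x only after Rps, l also marking the copies), together with Rplp0, Rplp1, Rplp2 and Rpsa. The rule found 83 of 55291 rows, 51 of the large subunit and 32 of the small subunit. Of these, 76 were main genes (46 large, 30 small) and 7 were copies whose symbols end in l, namely Rpl10l, Rpl3l, Rpl32l, Rpl39l, Rpl6l, Rps27l and Rps4l. A further list of 7 genes of the same family or of ribosome-bound proteins falls outside the symbol rule and is given on its own.

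Splenic CD8+ T cells of naïve mice were enriched on magnetic particles, and polyadenylated RNA was sequenced from 8 libraries. Of these, 4 are titled ATF4 overexpression (ATF4OE), with ATF4 Tg/Tg as their genotype, and 4 are labelled WT. The series' design text names the mice differently, as ATF4Tg/Tg and E8IcreATF4Tg/Tg, so the animals labelled WT may also carry the transgene without Cre. E8I is an enhancer of Cd8a that drives Cre in mature CD8+ T cells. The age of the mice and whether each library came from its own mouse were not given in the sources used here, and p-values then reflect only how these libraries vary, part of which may be technical. ATF4 is the transcription factor by which the integrated stress response raises the synthesis and uptake of amino acids, and the comparison shows what its forced expression goes with in CD8+ T cells outside a tumour.

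A ribosome joins a small subunit, which binds the messenger RNA and reads its codons, to a large subunit, which joins amino acids and releases the chain through an exit tunnel. Almost every ribosomal protein is present once per ribosome, and the exceptions are the acidic proteins of the stalk. Most ribosomal protein messages begin with a terminal oligopyrimidine (TOP) tract, a cytidine followed by further pyrimidines at the very 5′ end, through which mTORC1 and the RNA-binding protein Larp1 control their translation and stability. Naïve T cells hold few ribosomes and build many more when they are activated.

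Levels are given as CPM, the counts in each 1e6 counts of a library after TMM scaling. A change is a log2 fold change of ATF4OE over WT with its standard error (SE), and calls required a p below 0.05 in edgeR's quasi-likelihood test after Benjamini-Hochberg adjustment over all 16630 genes tested. Libraries held 93478686 to 125974143 estimated counts, so counting error is small for the main genes, whose totals over the 8 libraries ran from 305893 for Rpl38 to 3010201 for Rpsa. Atf4 itself stood at 285, 308, 165 and 165 CPM in WT 1 to 4 and at 445, 427, 228 and 212 CPM in ATF4OE 1 to 4, higher in each replicate pair but with overlapping groups. Its log2 fold change of 0.51 was not called (adjusted p = 0.37), and it was called when libraries of the same replicate number were compared as pairs (0.48, adjusted p = 2.2e-04). Without WT 1, WT 4, ATF4OE 1 and ATF4OE 2 its log2 fold change was -0.11 (adjusted p = 0.86), with WT 2 and 3 left against ATF4OE 3 and 4. Replicates 3 and 4 stood below replicates 1 and 2 in both groups, and the remaining libraries are not balanced between them. Libraries WT 1, WT 4, ATF4OE 1 and ATF4OE 2 had fewer genes with 1 to 5 counts (998 to 1215) than the other 4 libraries (1752 to 2185), and results below are also given without them where that matters.

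The CD8+ purification can leave other spleen cells behind, and their markers moved with the genotype. Summed CPM over 8 erythroid markers ran from 10.7 to 14.03 in WT and from 73.3 to 274 in ATF4OE, over 8 B cell markers from 34.1 to 64.3 and from 98.2 to 270, and over 8 myeloid markers from 16.2 to 68.0 and from 109 to 248. Over 10 proliferation genes the sums ran from 285 to 338 in WT and from 453 to 950 in ATF4OE, while 14 CD8 T cell genes summed to 11251 to 11824 in WT and 8967 to 9656 in ATF4OE. Of these lists, 6 of 8 erythroid, 6 of 8 B cell, 5 of 8 myeloid and 7 of 10 proliferation genes rose, 8 of 14 CD8 T cell genes fell (13 of 14 with replicate pairs), and no marker was at 0 in every library. Without the 4 libraries with few low counts, 6 of 8 erythroid, 0 of 8 B cell, 4 of 8 myeloid and 9 of 10 proliferation genes were called higher and 1 of 14 CD8 T cell genes lower. The part of these cells in the ribosomal protein results was not tested. In a bulk library, fewer cells of a type and less RNA per cell cannot be told apart.

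All 76 main ribosomal protein genes fell in the ATF4OE libraries, and none rose. The decrease ran from 21.3% for Rps26 and 21.4% for Rps2 to 47.1% for Rps27, with a median of 33.3%. On the log2 scale the median was -0.59, and the central part of the genes lay between -0.66 (lower quartile) and -0.52 (upper quartile). Of the 16630 genes tested, 4.89% were called lower and 9.16% higher, and the median of all genes was -0.02. Among 518 other genes at 300 CPM or above, a level like that of the main ribosomal protein genes, 13.9% were called lower and 2.51% higher, and their median was -0.12. For each of the 76 genes the 4 ATF4OE libraries lay below the 4 WT libraries with no overlap, a pattern shown by 8.66% of all tested genes.

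**Figure D1:**
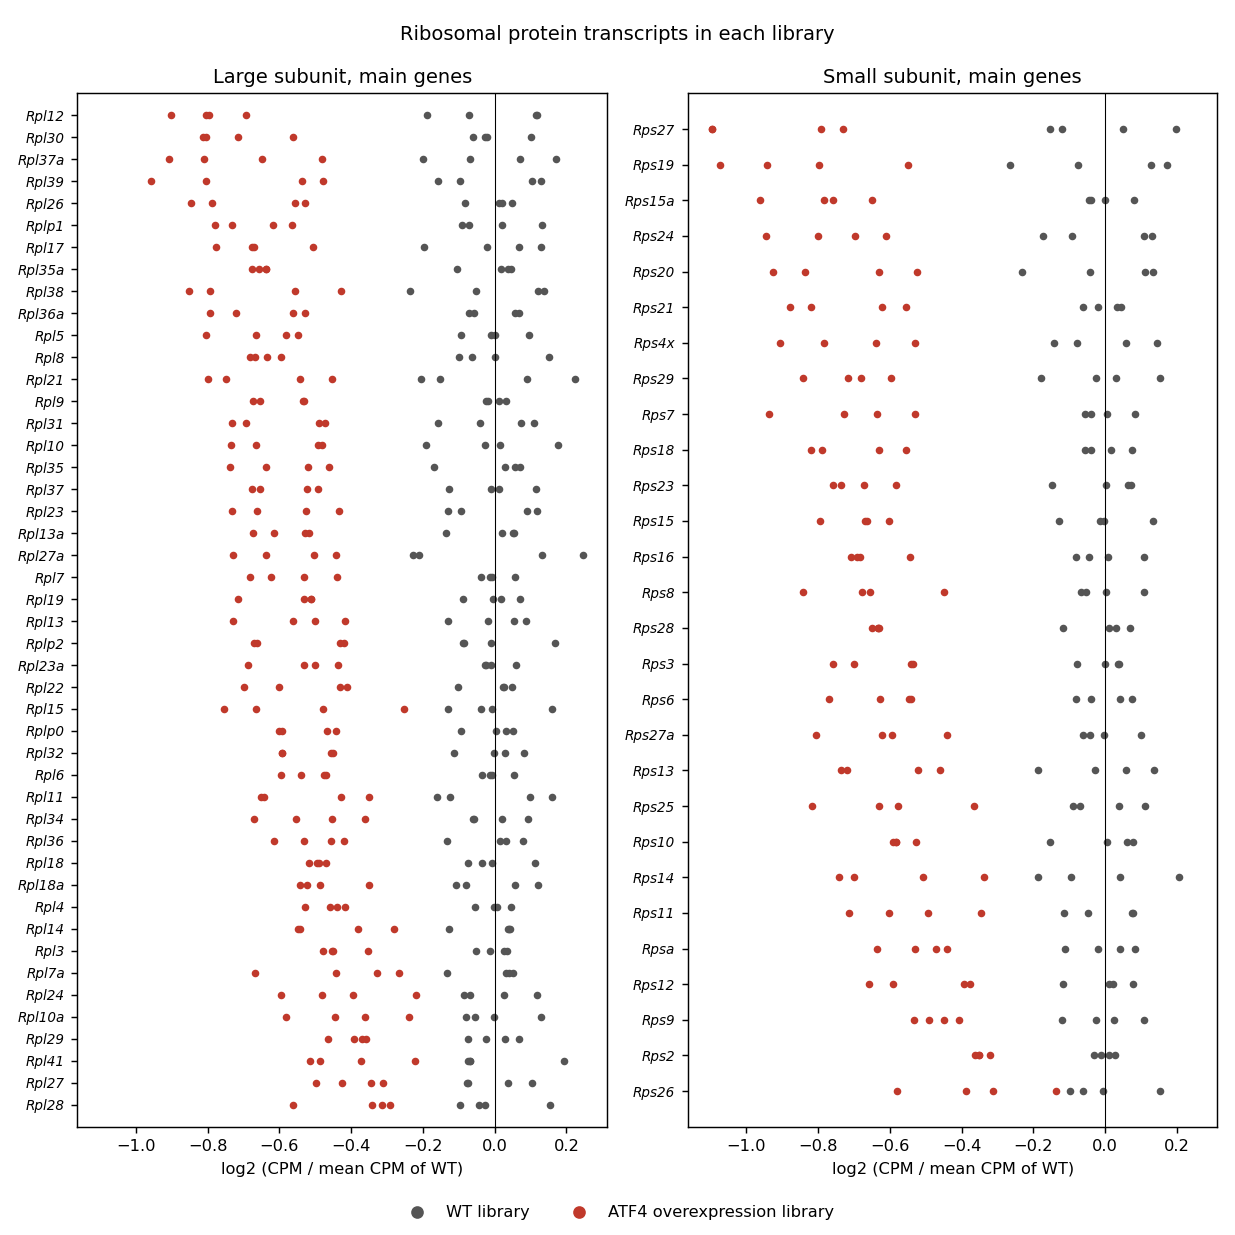
Each row is 1 main ribosomal protein gene, and each point is 1 library, placed on the x axis at the log2 of its CPM over the mean CPM of the 4 WT libraries (grey, WT; red, ATF4 overexpression). In each panel genes are ordered by log2 fold change, from Rpl12 to Rpl28 on the left and from Rps27 to Rps26 on the right; the red points lie left of the grey points in every row drawn, and a few genes are not drawn.

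The ribosomal protein genes together made up 10.1%, 10.5%, 11.03% and 10.6% of all counts in WT libraries 1 to 4, and 7.33%, 7.33%, 8.18% and 7.86% in ATF4OE libraries 1 to 4. All ATF4OE libraries lay below all WT libraries. The mean share was 10.5% ± 0.393 in WT and 7.67% ± 0.416 in ATF4OE (SD, n = 4), and the ratio within replicate pairs ran from 0.696 to 0.743. This share uses no scaling between libraries. Scaling by total counts alone moves the median of all genes from -0.02 to 0.11 on the log2 scale. Relative to the median of all genes, the main ribosomal protein genes stood at -0.56. Under total counts 68 of the 76 were called lower, against 2.32% of all genes. Without the 4 libraries with few low counts, 2 libraries a group remained and 55 of the 76 were called lower (1.94% of all genes), with a median log2 fold change of -0.57.

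In the large subunit, all 46 main genes fell, with a median log2 fold change of -0.56 and a range from -0.80 to -0.37. The smallest p-values were those of Rpl35a, a gene mutated in Diamond-Blackfan anaemia, Rpl9, Rpl30, Rpl12 and Rpl8. Rpl35a (chromosome 16, 33056453 to 33060189, plus strand, GRCm38) stood at 848, 935, 923 and 941 CPM in WT 1 to 4 and at 578, 571, 587 and 586 CPM in ATF4OE 1 to 4. The ATF4OE libraries were close to each other and well below the lowest WT library, and the log2 fold change was -0.65 ± 0.06 (SE, adjusted p = 1.4e-04). Rpl8, whose protein lies near the peptidyl transferase centre, stood at 1708, 2032, 1751 and 1830 CPM in WT and at 1141, 1211, 1152 and 1178 CPM in ATF4OE. Its log2 fold change was -0.64 ± 0.07 (SE, adjusted p = 3.9e-04), Rpl9 fell by 0.60 and Rpl30 fell by 0.72 on the same scale.

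The stalk of the large subunit, which recruits the elongation factor GTPases, is built from Rplp0 and the acidic proteins Rplp1 and Rplp2, and it sits on Rpl12. Rplp0 stood at 3346, 3581, 3701 and 3647 CPM in WT and at 2367, 2353, 2625 and 2580 CPM in ATF4OE. Rplp1 stood at 2046, 2212, 2386 and 2075 CPM in WT and at 1269, 1474, 1421 and 1312 CPM in ATF4OE. Rplp2 stood at 1299, 1468, 1230 and 1234 CPM in WT and at 970, 978, 826 and 822 CPM in ATF4OE. None of the stalk genes had overlapping groups, and their log2 fold changes were -0.52 ± 0.07 for Rplp0, -0.67 ± 0.08 for Rplp1 and -0.54 ± 0.09 for Rplp2 (SE; adjusted p = 8.8e-04, 5.0e-04 and 0.0034). Rpl12 changed the most of the large subunit genes. It stood at 2206, 2723, 2392 and 2726 CPM in WT and at 1344, 1445, 1438 and 1555 CPM in ATF4OE, a log2 fold change of -0.80 ± 0.09 (SE, adjusted p = 3.5e-04).

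In the small subunit, all 30 main genes fell, with a median log2 fold change of -0.64 and a wider range from -0.92 to -0.35. Among the smallest p-values were those of Rps15a, Rps28, which lies by the path on which the message leaves the subunit, Rps16, whose tail reaches towards the peptidyl-site tRNA, and Rps23, a protein of the decoding centre. Rps15a stood at 1565, 1518, 1657 and 1522 CPM in WT and at 910, 804, 998 and 926 CPM in ATF4OE. Its log2 fold change was -0.78 ± 0.08 (SE, adjusted p = 2.0e-04). Rps28 stood at 651, 678, 659 and 595 CPM in WT and at 416, 417, 417 and 411 CPM in ATF4OE, so its ATF4OE libraries were almost equal (415 ± 2.74, SD, n = 4). Its log2 fold change was -0.64 ± 0.06 (SE, adjusted p = 2.0e-04), beside -0.66 for Rps16 and -0.68 for Rps23. Rpsa, also known as a laminin receptor, stood at 3660, 4189, 3900 and 4066 CPM in WT and at 2546, 2914, 2738 and 2850 CPM in ATF4OE, a log2 fold change of -0.52 ± 0.07 (SE, adjusted p = 0.0013).

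The ends of the range held named genes with well separated values. Rps27, a zinc-binding protein of the small subunit (chromosome 3, 90212522 to 90213651, minus strand, GRCm38), stood at 1572, 1399, 1742 and 1365 CPM in WT and at 877, 711, 915 and 711 CPM in ATF4OE. Its highest ATF4OE library lay well below its lowest WT library, and its log2 fold change of -0.92 ± 0.11 (SE, adjusted p = 7.1e-04) was the farthest from 0 of the 76. Rps19, the gene most often mutated in Diamond-Blackfan anaemia, stood at 1175, 1020, 1213 and 895 CPM in WT and at 619, 511, 736 and 560 CPM in ATF4OE (log2 fold change -0.83 ± 0.13, SE, adjusted p = 0.0026). Its groups did not overlap, but libraries 1 and 3 stood above libraries 2 and 4 in both groups. Rps2, a protein of the channel by which the message enters the small subunit, varied little within groups, at 1302, 1354, 1339 and 1319 CPM in WT and at 1042, 1033, 1063 and 1042 CPM in ATF4OE (-0.35 ± 0.06, SE, adjusted p = 0.0029). Rpl28 fell by 0.37 and Rpl27 by 0.39 on the log2 scale (adjusted p = 0.016 and 0.0057), both large subunit genes.

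Rps26, which contacts the message near the exit of its channel, was the weakest call. It stood at 765, 910, 784 and 816 CPM in WT and at 547, 744, 627 and 659 CPM in ATF4OE, so that the highest ATF4OE library came close to the lowest WT library. Its log2 fold change was -0.35 ± 0.10 (SE, adjusted p = 0.046). It was called in 8 of 21 other settings and was below 0 in all of them. Leaving out ATF4OE replicate 2 kept the call, and leaving out any other single library gave adjusted p from 0.063 to 0.12. With replicate pairs the adjusted p was 5.5e-04.

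The TOP tract is the feature by which these messages are usually grouped, so the bases around the annotated start of the genes at both ends of the range are shown. Each window holds 30 bases of the transcribed strand, 15 before and 15 from the start onwards, from RefSeq on GRCm38.p6, and the capitals mark the longest run of pyrimidines that opens with C.
Rps27, chr3:90213634-90213663, minus strand: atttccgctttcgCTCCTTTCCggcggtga
Rps19, chr7:24884898-24884927, plus strand: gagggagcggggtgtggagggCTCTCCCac
Rpl12, chr2:32961697-32961726, plus strand: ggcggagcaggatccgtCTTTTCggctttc
Rps15a, chr7:118116133-118116162, minus strand: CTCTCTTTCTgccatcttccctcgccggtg
Rps26, chr10:128626492-128626521, minus strand: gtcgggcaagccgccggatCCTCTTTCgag
Rps2, chr17:24720048-24720077, plus strand: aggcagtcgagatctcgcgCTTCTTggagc
Rpl28, chr7:4792950-4792979, plus strand: ccgcctctcgtgtCTCTCTTTCCgtctccg
Rpl27, chr11:101442230-101442259, plus strand: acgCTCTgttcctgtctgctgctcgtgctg
The first 4 are the genes farthest from 0 and the last 4 those nearest to 0. Runs of 6 or more bases were present in all but Rpl27, where the longest run had 4 bases, and both ends held runs of up to 10 bases (Rps15a and Rpl28). The run of Rps15a opens at the first base of its window, so it may be longer than shown. It also ends before the annotated start, while that of Rpl28 spans it. Where a gene had several annotated starts, the start with the longest run is shown. The position of a run depends on that start, which can lie away from the base at which most transcripts begin. For Rps2 the start shown is 24720063, while the annotated gene begins at 24718116. For Rps19 these positions are 24884913 and 24884371.

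Of the 76 main genes, 56 had an entry in the RefSeq table of starts. Some symbols have more than 1 start there (73 rows for 61 ribosomal protein symbols). The start with the longest run was taken for each symbol, in the main genes and in all genes alike. The shares below depend on this choice, and a share with a run counts each gene at its most favourable start. A run of at least 6 pyrimidines opening with C within these windows was found in 33 of them (58.9%), against 25.5% of 27025 genes of the table, and the share was alike in the large (58.8%) and the small subunit (59.1%). The motif CTTTCC, searched on both strands of the same window and able to overlap the run, was found in 16.1% of the main genes and in 2.76% of all genes. The size of the decrease differed little between genes with and without such a run: the median log2 fold change was -0.57 over the 33 genes with a run of at least 6, -0.60 over the 23 with a shorter run and -0.59 over the 20 without an entry, and all genes of each class were called lower. Across the 56 genes the correlation of the run length with the log2 fold change was 0.11 (Pearson), a description over genes that share their libraries.

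Small subunit genes made up most of the larger decreases, and large subunit genes most of the smaller ones. Of the 15 main genes farthest from 0 (log2 fold changes from -0.92 to -0.68), 12 belonged to the small subunit, and of the 15 nearest to 0 (-0.49 to -0.35), 12 belonged to the large subunit. Large subunit rows summed to 63099 CPM in WT and 42869 CPM in ATF4OE (ratio 0.679), and small subunit rows to 47216 and 30456 CPM (ratio 0.645). The summed large over small ratio was 1.31, 1.36, 1.31 and 1.37 in WT 1 to 4 and 1.39, 1.45, 1.36 and 1.43 in ATF4OE 1 to 4. The groups overlapped, since ATF4OE 3 stood below WT 4, but the ratio was higher in ATF4OE in 4 of 4 replicate pairs, by a factor of 1.04 to 1.07. The mean ratio was 1.34 ± 0.0357 in WT and 1.41 ± 0.0400 in ATF4OE (SD, n = 4). The difference of 0.0720 between the means was larger than the SD within either group, and it remained positive, from 0.0570 to 0.0867, when any single library was left out.

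**Figure D2:**
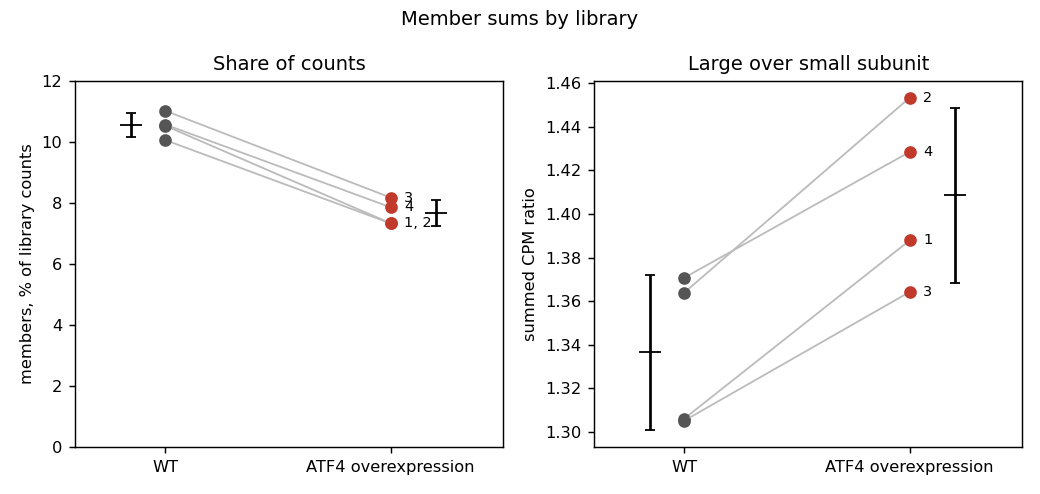
Left, the share of library counts from the 83 ribosomal protein rows (%); right, the summed CPM of large subunit rows over that of small subunit rows. Points are libraries (grey, WT; red, ATF4 overexpression), lines join equal replicate numbers (given at the right), and bars show the mean ± SD of 4 libraries; the share falls from 10.5% to 7.67% and the ratio rises in every pair, with an axis that does not start at 0.

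Transcript levels differed widely between ribosomal protein genes. Levels per kilobase used a representative transcript of each gene in GENCODE M21, the shortest among those tagged with a consensus coding sequence where any were. On this scale the highest WT levels were those of Rps24 (7932 CPM per kb), another Diamond-Blackfan anaemia gene, Rps27 (4404) and Rplp1 (4368). They were 4692, 2330 and 2743 CPM per kb in ATF4OE. The lowest levels among the main genes were those of Rps20 (302 CPM per kb in WT, 183 in ATF4OE), Rpl35 (582 and 388) and Rpl27 (644 and 490). The value of Rps20 rests on a transcript model of 3706 bases, the longest of all main genes. It would rise with a shorter model, so its place as the lowest depends on the model taken. Genes at a higher level per length in WT tended to lie lower in the range of log2 fold changes (Pearson -0.32, Spearman -0.31 over 76 genes), transcripts richer in G and C tended to lie higher (0.29 and 0.32), and transcript length was hardly related (0.02 and 0.19). These correlations are descriptions over genes that share the same libraries.

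Ribosomal protein genes have many processed pseudogenes in the mouse genome, so part of their reads can be assigned elsewhere. The share of 50-base windows of a main gene's transcript that also occur in another gene reached 98.6% for Rps27. The 7 genes with less than 25% shared windows had a median log2 fold change of -0.63, the 42 genes with 25% to 75% had -0.58 and the 27 genes with 75% or more had -0.59, and all were called lower.

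**Figure D3:**
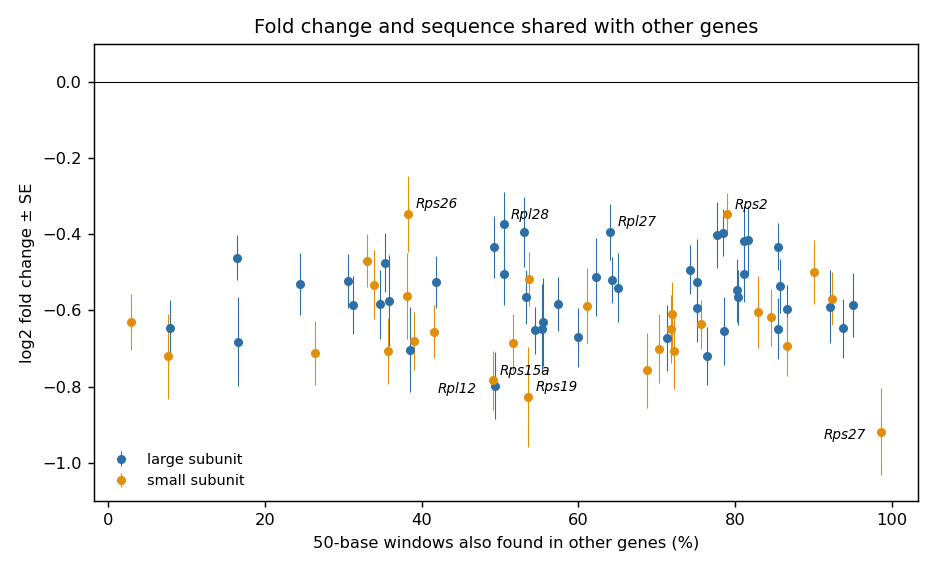
Each point is 1 main gene (blue, large subunit; orange, small subunit), with the share of its 50-base windows that occur in another gene on the x axis (%) and the log2 fold change ± SE on the y axis. Points stay between -0.92 and -0.35 across the x range, which reaches 98.6% with Rps27; a few genes are not drawn.

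Rps27 shares most windows with Rps27rt, a retrocopy that stood at 81.6, 60.7, 86.8 and 59.0 CPM in WT and at 31.2, 30.2, 43.2 and 34.2 CPM in ATF4OE. Those levels were 4.74% and 4.32% of the level of Rps27. Adding the retrocopy's CPM to that of Rps27 left the log2 ratio of means at -0.92. The division was much less clear for Rpl5, a protein that joins the ribosome in a particle with Rpl11 and binds Mdm2 outside it. Gm15500, annotated as a transcribed processed pseudogene, shares most windows with Rpl5 and was listed at 1903 ± 70.9 CPM in WT and 1120 ± 129 CPM in ATF4OE (SD, n = 4), 133% and 122% of Rpl5's own 1435 ± 77.5 and 916 ± 70.9 CPM. Both rows fell, by 0.65 on the log2 scale for Rpl5 (adjusted p = 5.5e-04) and by 0.76 for Gm15500 (adjusted p = 5.0e-04), and their summed level gave -0.71. For 71 main genes the row that shares most windows was in the matrix. Its level was above 10% of the gene's own in WT for 16 of the 71 (median 4.73%), and adding it moved no log2 ratio by more than 0.07. Only this 1 row was added for each gene, while Rpl7a shares windows with 123 genes and Rpl21 with 82. The row added for Rpl21 (Gm10240) was at 0 CPM in both groups. The move of 0.07 is therefore no upper bound on the effect of all rows that share windows.

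None of the 7 copies was called. Rpl10l, a retrocopy known from testis, and Rpl3l, known from heart and skeletal muscle, had 0 counts in every library. The other 5 copies were tested, beside 76 of 76 main genes called, and their log2 fold changes ran from -0.62 to 0.40 with a median of -0.25. Their SE was larger (median 0.30, against 0.08 in the main genes), and 4 of them stood below 12 CPM in every library.

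Rps27l, which is known as a target of the tumour suppressor p53, was the most abundant copy. It stood at 16.2, 12.8, 20.6 and 17.4 CPM in WT and at 14.2, 11.2, 27.8 and 21.8 CPM in ATF4OE. The groups overlapped, with the lowest and the highest library both in ATF4OE, and the log2 fold change of 0.16 ± 0.27 (SE) was not called (adjusted p = 0.78). It was -0.16 within replicates 1 and 2 and 0.39 within replicates 3 and 4 (adjusted p = 0.69 and 0.12), and -0.09 without ATF4OE replicate 3. Rps4l stood at 1.63, 0.983, 1.47 and 2.35 CPM in WT and at 1.87, 2.26, 2.16 and 2.19 CPM in ATF4OE, again with overlap (0.40 ± 0.30, SE, adjusted p = 0.48).

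Rpl6l stood at 9.25, 11.01, 7.49 and 7.04 CPM in WT and at 4.69, 6.10, 6.66 and 6.90 CPM in ATF4OE. It was the 1 copy whose groups did not overlap, though the highest ATF4OE library was close to the lowest WT library, and its log2 fold change of -0.51 ± 0.19 (SE) was not called (adjusted p = 0.12). The difference lay mostly in replicates 1 and 2 (-0.88, adjusted p = 0.046) rather than 3 and 4 (-0.10, adjusted p = 0.68), but the test of that difference was not passed (interaction adjusted p = 0.22). Rpl39l, another copy known from testis, stood at 0.384, 0.298, 0.284 and 0.930 CPM in WT and at 0.168, 0.113, 0.457 and 0.494 CPM in ATF4OE (-0.62 ± 0.70, SE, adjusted p = 0.66). Rpl32l ran from 0.486 to 0.701 CPM in WT and from 0.132 to 0.751 CPM in ATF4OE (-0.25 ± 0.56, SE, adjusted p = 0.85).

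Whether reads of a copy can be told from those of its parent depends on the sequences, so the first 60 coding bases of the copies Rpl39l and Rps27l and of their parents are shown, from GENCODE M21 on GRCm38, with the bases that differ within a pair in capitals.
Rpl39: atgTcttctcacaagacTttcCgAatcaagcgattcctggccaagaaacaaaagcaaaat
Rpl39l: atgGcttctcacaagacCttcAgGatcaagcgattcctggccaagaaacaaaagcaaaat
Rps27: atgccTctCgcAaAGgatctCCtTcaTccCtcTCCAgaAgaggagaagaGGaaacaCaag
Rps27l: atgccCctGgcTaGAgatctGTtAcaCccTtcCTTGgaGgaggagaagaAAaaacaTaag
Rpl39l differed from Rpl39 at 4 of these bases and at 23 of all 153 coding bases (85.0% identity, longest identical run 38 bases). Rps27l differed from Rps27 at 18 of these bases and at 60 of all 252 coding bases (76.2% identity, longest identical run 11 bases). No 50-base window of Rpl39l, Rps27l, Rps4l, Rpl10l or Rpl3l occurs in its parent's transcript. In contrast, 61.8% of the windows of Rpl6l and 19.4% of those of Rpl32l, both annotated as processed pseudogenes, occur in the parent, so their counts are uncertain. Windows of Rps27l (22.4%) and Rps4l (18.0%) occur in genes other than the parent, most often in Gm14706 and Rps4l-ps. The counts of Rps27l and Rps4l are therefore not free of doubt either. Rps4l is itself annotated as a transcribed processed pseudogene.

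The level of a copy relative to its parent was compared for 8 pairs, the 5 copies tested and Rpl22l1, Rpl7l1 and Rpl36al, which lie outside the symbol rule. Rps27l stood at 1.03%, 0.912%, 1.18% and 1.27% of Rps27 in WT and at 1.62%, 1.57%, 3.04% and 3.06% in ATF4OE. The groups did not overlap, and the difference of the mean log2 ratios was 1.01. Rps4l had 0.0643% ± 0.0266 of Rps4x in WT and 0.139% ± 0.0237 in ATF4OE (SD, n = 4), Rpl7l1 had 2.72% ± 0.581 and 4.01% ± 0.694 of Rpl7, and Rpl36al had 42.6% ± 2.61 and 52.1% ± 4.32 of Rpl36a. In each of these 4 pairs no ATF4OE library overlapped a WT library, so the relative level was by necessity higher in 4 of 4 replicate pairs. Over the 70 assignments of 4 against 4 libraries, the exact two-sided permutation p was 0.0286, the smallest value possible. Groups without overlap always give this p. After Benjamini-Hochberg adjustment over the 8 pairs it was 0.0571, so none passed. With 4 of the 8 pairs at the smallest p, no lower adjusted value was possible for them. The parents fell in each of these pairs, and of the copies only Rpl36al changed. Rpl22l1 stood at 30.2% ± 6.11 of Rpl22 in WT and 31.0% ± 7.69 in ATF4OE (adjusted p = 0.886 in the exact permutation test), with overlapping groups; Rpl22 is needed for the development of αβ T cells.

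**Figure D4:**
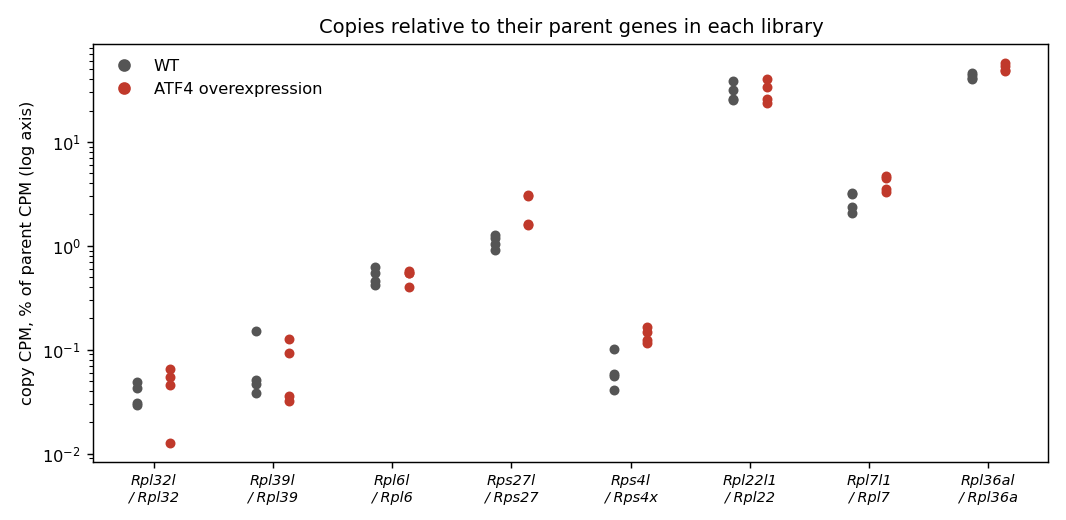
Level of each copy as a percentage of its parent's CPM (log axis), 1 point per library (grey, WT; red, ATF4 overexpression). Red and grey points are separate for Rps27l, Rps4l, Rpl7l1 and Rpl36al and overlap for Rpl32l, Rpl39l, Rpl6l and Rpl22l1.

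Ribosomal and ribosome-bound genes whose symbols fall outside the rule fell for the most part. Of 7, 5 fell and none rose, with a median log2 fold change of -0.51, beside 4.89% of all genes called lower. Rps3a1, a main small subunit gene despite its symbol, stood at 2964, 3345, 3092 and 3358 CPM in WT and at 1860, 1826, 1977 and 2120 CPM in ATF4OE (-0.71 ± 0.08, SE, adjusted p = 2.9e-04). Fau, which makes a ribosomal protein fused to a ubiquitin-like protein, fell by 0.51 (adjusted p = 0.0063), and Rack1, a signalling scaffold on the small subunit, fell by 0.53 (adjusted p = 0.0028). Rpl36al fell by 0.36 (adjusted p = 0.021), a call lost without WT replicate 2, 3 or 4 (adjusted p = 0.060, 0.051 and 0.054). Rpl22l1 had a log2 fold change of -0.49 that was called only with replicate pairs (adjusted p = 0.11, and 5.7e-04 with the pairs). Rpl7l1, a biogenesis factor related to Rpl7, had 53.2 ± 12.2 CPM in WT and 53.2 ± 12.9 CPM in ATF4OE (SD, n = 4). Without the 4 libraries with few low counts, 2 of the 7 were called lower (1.94% of all genes).

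Other genes of the translation machinery were compared by lists. Of all genes, 4.89% were called lower, 13.5% with replicate pairs and 1.94% without the 4 libraries with few low counts. Among 518 genes at 300 CPM or above, other than the ribosomal protein rows, 13.9% were called lower. Of 6 elongation factors, 5 fell, with a median log2 fold change of -0.43: Eef1a1, which brings aminoacyl-tRNA to the ribosome, from 15880 ± 675 to 11185 ± 1044 CPM (SD, n = 4; -0.51, adjusted p = 0.0024), its exchange factor subunits Eef1b2 (-0.70, adjusted p = 6.6e-04), Eef1g (-0.55, adjusted p = 0.0028) and Eef1d (-0.35, adjusted p = 0.029), and the translocase Eef2. The call of Eef1d was lost without WT replicate 2 or 4 or without ATF4OE replicate 1, 2 or 3 (adjusted p from 0.052 to 0.077), and 1 of the 6 was called without the 4 libraries with few low counts. Of 13 further genes known for TOP messages, 5 fell and none rose (8 fell with replicate pairs), with a median of -0.21. Tpt1, a long-known TOP message, stood at 5777, 6002, 5813 and 5877 CPM in WT and at 3700, 3819, 3577 and 3501 CPM in ATF4OE, with no overlap (-0.69 ± 0.06, SE, adjusted p = 8.2e-05). Naca, a chaperone at the tunnel exit, fell by 0.41 (adjusted p = 0.0051). The initiation factor subunits Eif3e and Eif3k, at -0.37 and -0.34 (adjusted p = 0.026 and 0.021), each lost the call when single libraries were left out (adjusted p from 0.054 to 0.072 for Eif3e without WT 1, 3 or 4 or ATF4OE 1 or 4, and from 0.051 to 0.064 for Eif3k without WT 2 or 4 or ATF4OE 1 or 2). In this list 1 gene was called without the 4 libraries with few low counts.

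Few of the factors that build ribosomes were called. Of 36 ribosome biogenesis genes, 3 fell and none rose (6 fell with replicate pairs), with a median log2 fold change of -0.06, beside 4.89% of all genes called lower (13.5% with replicate pairs): Utp20 (-0.32, adjusted p = 0.029), Tsr1 (-0.29, adjusted p = 0.028) and Utp4 (-0.21, adjusted p = 0.049). Of 78 mitochondrial ribosomal proteins, which belong to a separate ribosome, 3 fell and none rose (5 fell and 1 rose with replicate pairs), with a median of -0.01. They were Mrps18b (-0.36, adjusted p = 0.013), Mrps34 (-0.31, adjusted p = 0.021) and Mrpl30 (-0.33, adjusted p = 0.043). Except for Mrps18b, each of these calls of biogenesis and mitochondrial genes was lost without at least 1 single library, and 0 genes of either list were called without the 4 libraries with few low counts. A run of at least 6 pyrimidines lay anywhere in the window around the start in 12.9% of the biogenesis genes with an entry. It did so in 29.0% of the mitochondrial ribosomal protein genes with an entry, against 25.5% of all genes. Among 20 genes of mTORC1, cap binding and TOP control, 2 rose and none fell (3 rose and 2 fell with replicate pairs), a share near the 9.16% of all genes called higher. The 2 that rose without pairs were Eif4ebp1, an inhibitor of cap-dependent translation, at 3.36 on the log2 scale (adjusted p = 5.9e-08) and Sesn2, an inhibitor of mTORC1, at 3.38 (adjusted p = 1.5e-06). Larp1 had 267 CPM in WT and 294 CPM in ATF4OE and was not called (0.14, adjusted p = 0.23). With replicate pairs Larp1 was called higher (0.14, adjusted p = 0.027), as were 2279 of all 16630 genes tested.

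**Figure D5:**
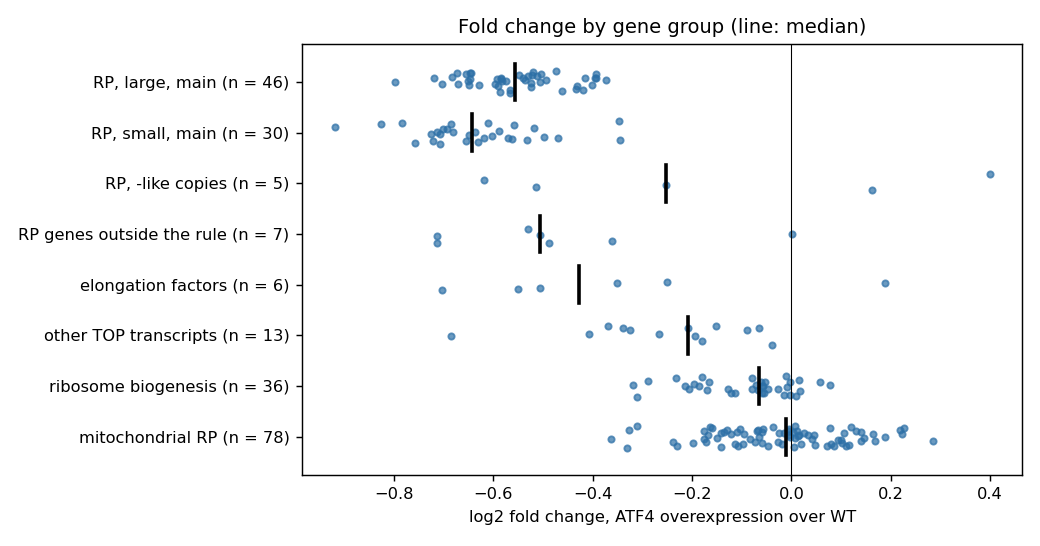
Log2 fold change of ATF4 overexpression over WT (x axis) for each tested gene (point) of 8 groups, with the group's median as a line; RP stands for ribosomal protein. The large and small subunit main genes lie wholly below 0 with medians of -0.56 and -0.64, while the mitochondrial ribosomal proteins centre on -0.01.

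All 76 main genes were lower in ATF4OE in 4 of 4 replicate pairs. This holds for any pairing where the groups do not overlap, so it adds nothing to that result. Replicates 1 and 2 are taken here as a library set apart from replicates 3 and 4. The columns of replicates 3 and 4 are named differently, with library numbers that differ from the replicate numbers. The labels name no such set. Within replicates 1 and 2 alone, 72 of the 76 were called lower (3.07% of all genes) with a median log2 fold change of -0.60, and within replicates 3 and 4 alone, 73 of the 76 (8.0% of all genes) with a median of -0.56. A test of whether the change differed between the sets called 0.998% of all genes and 0 of the ribosomal protein genes, the smallest adjusted p among these being that of Rpl6l (0.22).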

How the data were processed

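The authors used Salmon to make the deposited estimated counts, 1 row a gene symbol, on mouse build GRCm38.p6, per the submitters' processing notes. Its annotation release and strand setting: not given in the sources used here. Salmon divides reads shared between genes by a model. Estimated counts were rounded to whole numbers. Every column was mapped to 1 of the 8 libraries by its name, and 0 columns were unused. Groups and replicate numbers came from the sample titles. Depth is known from the totals per library; the precision it gives covers counting error only, since reads carry no molecular identifiers.

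Genes were tested with edgeR 4.0.16 (quasi-likelihood, group as the only term, TMM, filterByExpr, robust) in R 4.3.3, and 81 of the 83 ribosomal protein rows passed the filter. SE was derived from the F statistic. Alternatives were other scalings and filters, DESeq2 1.42.0, voom of limma 3.58.1, blocks by replicate number or library set, single sets and leaving out each library. The alternative without the 4 libraries with few low counts and the look at pseudogene rows were chosen after seeing the data. Replicate numbers pair the libraries: deviations from group means of same-numbered libraries correlated at 0.576, 0.612, 0.634 and 0.624 over the 9182 genes at 8 CPM or above on average. Differently numbered libraries of the same set also correlated, at 0.332, 0.455, 0.489 and 0.393. Part of the correlation of same-numbered libraries can therefore lie in the set. All correlations across the sets were negative. Deviations from a group mean cancel over its libraries, so positive correlations within sets bring negative ones across them, and the sign adds nothing. This pairing by number comes from the data, not from the labels.

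On data simulated for this comparison (15445 genes), the test called 51.1% of 45 genes with a true log2 change of -1, 18.8% of 48 with -0.5, 13.0% of 46 with 0.5 and 55.6% of 45 with 1, and none of 15261 unchanged genes. Log2 ratios of copies to parents used a pseudocount of 0.5 CPM. All 83 symbols matched GENCODE M21, which gave coordinates counted from 1, lengths and coding bases. The RefSeq table of starts held 61 of the 83 symbols.

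The genes, the lists and the tests were chosen with earlier results of these data known. Named with values were Atf4, every copy and its parent, the stalk genes and Rpsa, in each subunit the 5 called genes with the smallest p, the 4 called genes nearest to 0 and the 4 farthest, genes not called, the 3 highest and 3 lowest levels per length, up to 4 genes of each list by p, and genes of the list outside the symbol rule. A few genes that this rule takes are not reported here by name. Rpl5, Gm15500 and Rps27rt were named after their values were seen.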

Additional observations from a re-analysis of the deposited data

Results flagged for a closer look

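Of 192 groups of 4 libraries examined over the named genes, 4 held a library whose gap to its nearest neighbour, as a share of the group's range, was above Dixon's 95% critical value. Chance gives about 1 in 20 such groups. Rps16 in ATF4OE replicate 2 was at 1316.0 CPM with the other 3 libraries at 1174 to 1194 CPM. Rpl39l in WT replicate 4 was at 0.930 CPM with the others at 0.284 to 0.384 CPM. Fau in ATF4OE replicate 3 was at 621 CPM with the others at 508 to 526 CPM. Eif4ebp1 in ATF4OE replicate 1 was at 40.2 CPM with the others at 46.0 to 46.8 CPM.

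The change differed between the library sets (replicates 3 and 4 minus replicates 1 and 2, log2, edgeR interaction test adjusted over all genes) for 7 marker genes of other cell types and for no ribosomal protein gene. For NK cell genes the difference was -3.71 for Ncr1 (adjusted p = 1.3e-05), -2.43 for Klra9 (adjusted p = 0.0013) and -3.45 for Klra8 (adjusted p = 0.0043). It was -2.57 for Tyrobp (adjusted p = 9.6e-04) and -2.94 for Cd4 (adjusted p = 0.0048). For the erythroid genes it was 2.09 for Car1 (adjusted p = 0.039) and 0.90 for Car2 (adjusted p = 0.031).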

How the results depend on the processing

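Over the 21 alternatives, all 76 main genes stayed below 0 and the number called lower ran from 55 (without the 4 libraries with few low counts, 2 a group) over 68 (total counts) to 76, with 72 and 73 within single library sets and 75 or 76 when 1 library was left out; none was called higher. Without those 4 libraries 333 genes of all were called lower, against 813. With the replicate block the calls of the main genes were the same 76, and over all genes 2237 were called lower. Of the copies tested, Rps4l stayed above 0 (0.19 to 0.83) and Rpl6l below 0 (-0.88 to -0.10) under all alternatives. Rpl32l turned to 0.14 within replicates 3 and 4 and without the 4 libraries, and ran from -0.53 to 0.062 without single libraries; Rpl39l turned to 0.71 without the 4 libraries; Rps27l turned to -0.16 within replicates 1 and 2 and ran from -0.095 to 0.35 without single libraries. Rpl7l1, near 0, was -0.0015 with TMM without the ribosomal proteins, -0.013 with voom, -0.0014 with the replicate block, -0.0019 with the set block, and ran from -0.13 to 0.10 without single libraries. Sesn1 turned to 0.00099 within replicates 1 and 2. The log2 ratio of Rpl6l to Rpl6 turned to -0.26 within replicates 1 and 2 and ran from -0.038 to 0.15 without single libraries. That of Rpl22l1 to Rpl22 turned to -0.0046 without the 4 libraries and ran from -0.12 to 0.15 without single libraries. Atf4 was called with the replicate block and the set block (0.48 each) and within each set (0.59 and 0.41), and was -0.11 without the 4 libraries, which leaves WT 2 and 3 (1 from each set) against ATF4OE 3 and 4 (both of the same set) with no set term. The cause of these moves was not tested. Depth limits the copies other than Rps27l and Rpl6l, at about 0.1 to 2 CPM.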

Other observations

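Rows named as numbered pseudogenes of the main ribosomal protein genes, looked at after the data were seen, fell in the same libraries. Of 316 such rows, 104 were tested, 38 fell and none rose, with a median log2 fold change of -0.66, against -0.59 for the main genes. Of all genes tested, 4.89% were called lower. Their share of all counts was 0.488% ± 0.0231 in WT and 0.346% ± 0.0299 in ATF4OE (SD, n = 4), a ratio of 0.708 against 0.728 for the ribosomal protein genes, and the ratio within replicate pairs ran from 0.679 to 0.749. Since these rows share sequence with their parents, their counts are not independent of them. Without the 4 libraries with few low counts, 21 of 111 tested rows fell and 1 rose, beside 1.94% of all genes called lower.

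Within each group, some ribosomal protein genes separated replicates 1 and 3 from replicates 2 and 4, in opposite directions. Rps19 stood higher in replicates 1 and 3 in both groups. Rpl27a stood at 1009 and 999 CPM in WT 1 and 3 against 1386 and 1281 CPM in WT 2 and 4, and at 751 and 705 CPM in ATF4OE 1 and 3 against 825 and 859 CPM in ATF4OE 2 and 4. The summed large over small subunit ratio was also lower in replicates 1 and 3 of both groups (1.31 and 1.31 against 1.36 and 1.37 in WT). The labels give no batch of this kind, and this pattern was noticed in the data and not tested.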
